A study of Drosophila melanogaster with 102 samples.

Results

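Maltases are alpha-glucosidases: they cut the terminal glucose from maltose, sucrose and short starch fragments. In Drosophila melanogaster the annotated maltases lie in a pair of gene clusters, and digestive maltases are made by the absorptive cells of the midgut (enterocytes), which release them into the gut or hold them at its surface. Dietary sugar is known to lower the transcripts of fly amylases and maltases, through the Activin-like ligand Dawdle and its receptor Baboon, and through the sugar sensor Mondo. The 10 genes described here are Mal-A1 to Mal-A8, Mal-B1 and Mal-B2. They were taken by symbol from the gene identifiers of the deposited count tables, and all 10 were found among 14312 genes.

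On assembly BDGP6.54 the 8 Mal-A genes lie side by side on chromosome arm 2R, from 8449664 to 8473961, a stretch of 24298 bases. In order they are Mal-A1 (8449664 to 8451904, minus strand), Mal-A2 (8453627 to 8455782, plus), Mal-A3 (8455909 to 8457892, minus), Mal-A4 (8458815 to 8460884, plus), Mal-A5 (8462753 to 8465092, plus), Mal-A6 (8465158 to 8467595, plus), Mal-A7 (8468646 to 8471663, minus) and Mal-A8 (8471954 to 8473961, plus). Neighbours are 65 bases (Mal-A5 and Mal-A6) to 1868 bases (Mal-A4 and Mal-A5) apart. Mal-B1 (11847226 to 11849169) and Mal-B2 (11849958 to 11852881) lie on the plus strand of chromosome arm 2L. Both Mal-B genes sit inside Pde1c, a phosphodiesterase gene read from the opposite strand, and Mal-A1 and Mal-A8 overlap Cyp4e1 and mtt, also on opposite strands. Each maltase has a coding sequence of 567 to 630 codons. The genes are close relatives, so reads could in part be shared between them. The sources used here do not say whether the libraries kept strand, so reads of the 4 overlapped genes and of their antisense partners may not be told apart.

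Whole flies were profiled by RNA sequencing. The strain was W1118, a white-eyed laboratory strain, except 1 library whose label reads W1119 (m45, a day 50 son library of the HSD line). Mothers were kept for 7 days at 25 °C on CD (Control Diet), HFD (High Fat Diet) or HSD (High Sugar Diet) and mated with males fed CD. All sons and daughters were themselves raised and kept on CD, so the diet names given for progeny below are those of their mothers. There were 15 mother libraries (5 per diet), 43 of daughters and 44 of sons, collected at day 0, day 10 and day 50. Each progeny group had 5 libraries, except 4 for CD daughters at day 0, 4 for HSD daughters at day 50, 3 for HFD sons at day 50 and 6 for HSD sons at day 50. Totals ran from 6332907 to 19469296 counts per library. The number of flies in a library, and whether libraries came from separate crosses, the labels do not say, so p-values measure the spread between these libraries. Since whole flies were used, fewer cells of a type and less RNA per cell cannot be told apart.

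Some libraries did not carry the transcripts that their labels imply, and test results that rest on them are given with and without them. Levels and correlations are given only with them. Libraries m1, m3 and m4 (CD sons, day 0), m8 (HFD sons, day 0) and f12 (HSD daughters, day 0) held transcripts of the other sex. Library m8 had 1327 CPM (counts scaled to a common library total) of osk, an oocyte gene, and 0 of Acp36DE, a male accessory gland gene. Libraries f13 and f15 (HSD daughters, day 0), f19 (CD daughters, day 10), f21 and f22 (HFD daughters, day 10), f26, f27 and f28 (HSD daughters, day 10) and m45 had age-related transcripts nearer to another day. None of these 14 libraries is a mother or a day 50 daughter. In the plainest case m45, labelled day 50, had flight muscle transcripts summing to 49970 CPM, and the median of its group was 6077. Libraries outside this list can be unusual too, and were not left out as in doubt. Library m27 (HSD sons, day 10) had 22.4 CPM of betaTub85D, a testis gene, where m28 and m29 of its group had 655 and 903. Library f10 (HFD daughters, day 0) had 967 CPM of osk, near the 908 of f13, while f11 had 196.

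The maltases differed widely in level. Per kilobase of transcript, over the libraries of mothers and progeny, which were scaled in separate tables, the median level was highest for Mal-A1 (61.4 CPM per kb), followed by Mal-A5 (55.6), Mal-B2 (35.8), Mal-A6 (33.3) and Mal-B1 (17.2). Mal-A8 (10.9), Mal-A7 (8.82), Mal-A2 (6.78), Mal-A3 (5.89) and Mal-A4 (5.18) were lowest. The order was not the same in each kind of fly. Mal-A5 led in mothers (68.7 CPM per kb) and daughters (65.2), while Mal-A1 (128) and Mal-A6 (80.5) led in sons, where Mal-A5 stood at 35.6. These orders are a description, since levels were not tested between genes. Genes close in level, such as Mal-A3 and Mal-A4, or Mal-A7 and Mal-A8, should not be read as ranked.

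**Figure D1:**
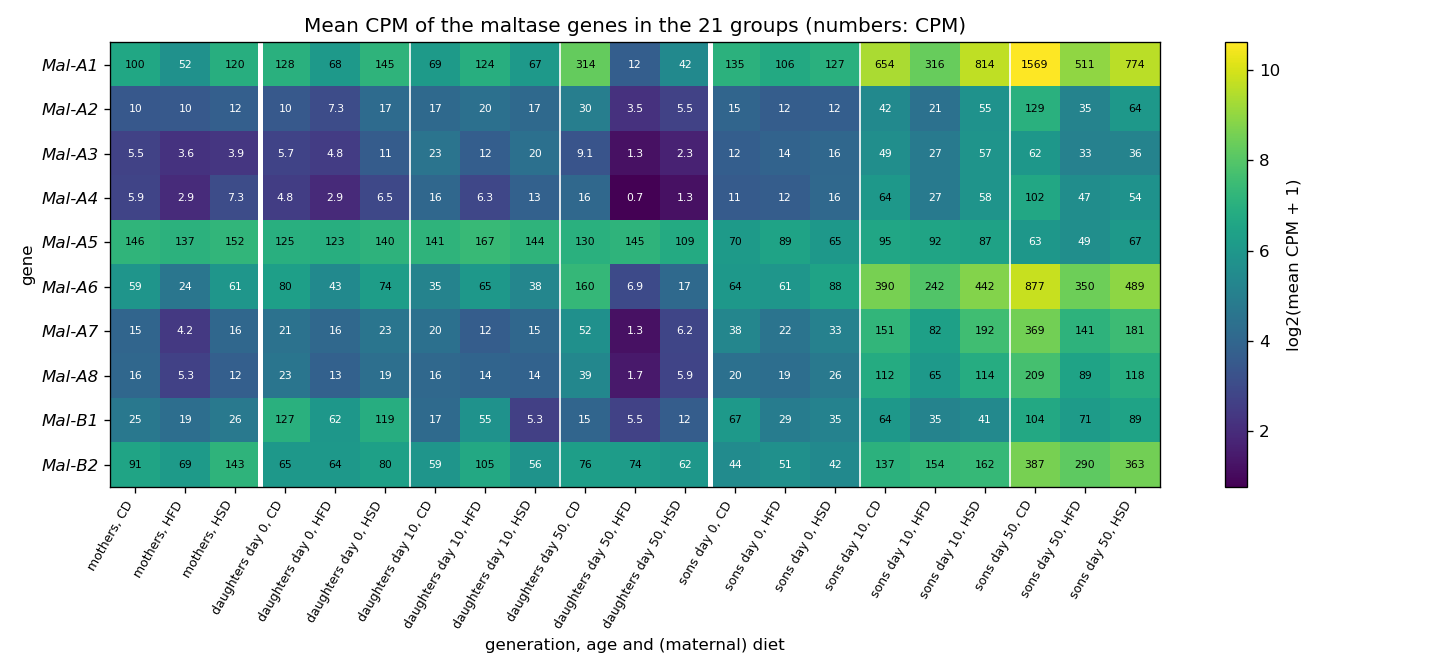
Mean level of each maltase (rows) in the 3 mother groups and 18 progeny groups (columns), with colour as log2(mean CPM + 1) and the mean CPM written in each cell. Mal-A1 ran from 12.1 CPM in HFD day 50 daughters to 1569 in CD day 50 sons, whereas Mal-A5 stayed between 49.1 and 167 CPM in every progeny group.

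Of the 18 progeny groups, CD sons at day 50 had the highest mean for 8 of the 10 members, all but Mal-A5 and Mal-B1. HFD daughters at day 50 had the lowest for 7, namely Mal-A1 to Mal-A4 and Mal-A6 to Mal-A8. The 2 ends were far apart: the CD son mean was 130 times the HFD daughter mean for Mal-A1, 145 times for Mal-A4 and 278 times for Mal-A7. Summed over the 10 genes, the level was 3869 ± 963 CPM (SD, n = 5) in CD day 50 sons and 252 ± 12 CPM (n = 5) in HFD day 50 daughters. Mal-A5 and Mal-B2 were the steadiest members, with a median SD between libraries of 1 group of 0.21 and 0.29 on the log2 scale. The other 8 had SDs of 0.73 (Mal-B1) to 1.49 (Mal-A7), so that libraries of a single group often differed several-fold. Every member had at least 1 count in every library and passed the filter on low counts in each of the 48 comparisons. Tests below are edgeR's quasi-likelihood test over all genes that passed, and a gene is called at a Benjamini-Hochberg adjusted p under 0.05. The share of all tested genes called in the same direction is given beside each count from this test as the background. Counts of members at an unadjusted p under 0.05 are set beside the number of all tested genes that had one. Counts from alternatives, such as broader fits or fits with libraries left out, are given without such a share. For DESeq2 the number of all genes called is given with some counts only.

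In daughters at day 50, most maltases were lower when the mother had been fed HFD or HSD than when the mother had been fed CD. With HFD mothers, 8 of 10 members were lower and none higher, against a background of 5.56% of genes called lower. With HSD mothers, 6 of 10 were lower, against 6.56%. The members' median log2 fold change was -3.82 for HFD and -2.61 for HSD, and the median of all tested genes was 0.019 and -0.003. Both comparisons use the same 5 CD libraries.

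Mal-A1 had the highest level of the 10 in the daughters of CD mothers. It stood at 338, 426, 291, 319 and 197 CPM in the CD libraries. With HFD mothers it was at 17.7, 4.68, 5.95, 11.7 and 20.3 CPM, and with HSD mothers at 22.5, 21.8, 11.8 and 113 CPM. No HFD or HSD library reached the lowest CD library, and library f44 (113 CPM) was the highest of the HSD group. Mal-A1 was lower by a log2 fold change of -4.74 ± 0.64 (SE, adjusted p = 0.000923) for HFD and -2.92 ± 0.64 (adjusted p = 0.0139) for HSD.

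Mal-A6, further along the cluster and read from the other strand, followed the same order. Its levels were 177, 172, 156, 187 and 107 CPM with CD mothers, 7.21, 2.45, 3.93, 6.49 and 14.6 with HFD mothers, and 11.5, 7.78, 7.37 and 39.3 with HSD mothers. The daughters of HFD or HSD mothers did not overlap with those of CD mothers. The log2 fold change was -4.56 ± 0.55 (adjusted p = 0.000449) for HFD and -3.31 ± 0.56 (adjusted p = 0.00435) for HSD.

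Mal-A7 and Mal-A8, at the far end of the cluster, fell below 5 CPM in every library with HFD mothers. Mal-A7 was at 58.5, 50.0, 52.6, 56.1 and 41.2 CPM with CD mothers and at 0.682, 0.140, 1.15, 1.39 and 3.26 with HFD mothers. In raw terms the HFD libraries held 2 to 46 counts of Mal-A7. With HSD mothers it was at 0.472, 3.03, 2.10 and 19.1 CPM. These 3 sets of libraries separate into CD above and the other 2 below, with f44 again nearest to CD. The CD mean was 39 times the HFD mean, and the log2 fold changes were -5.29 ± 0.82 (adjusted p = 0.00209) and -3.09 ± 0.77 (adjusted p = 0.0250). Mal-A8 went from 41.1, 42.2, 37, 44.2 and 28.5 CPM with CD mothers to 1.17, 0.210, 1.15, 1.39 and 4.82 with HFD mothers and 3.02, 4.67, 1.82 and 14 with HSD mothers. Here too no library crossed over. Its log2 fold changes were -4.48 ± 0.65 (adjusted p = 0.00151) and -2.75 ± 0.64 (adjusted p = 0.0182).

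The 3 weakly expressed genes at the other end, Mal-A2, Mal-A3 and Mal-A4, were lower with HFD mothers as well. Mal-A4 was at 15.8, 18.1, 12.6, 20.1 and 13.1 CPM with CD mothers, at 1.07, 0.559, 0.192, 0.618 and 1.06 with HFD mothers and at 0.567, 0.327, 0.421 and 4.0 with HSD mothers. It was called in both comparisons, with log2 fold changes of -4.52 ± 0.63 (adjusted p = 0.00112) and -3.62 ± 0.65 (adjusted p = 0.00549). Mal-A2 was at 26.8, 37.7, 24.0, 37.2 and 25.7 CPM with CD mothers and at 11.2, 0.839, 1.82, 2.32 and 1.21 with HFD mothers. Library f36 (11.2 CPM) stood far above the other HFD libraries and still below all CD libraries. The log2 fold change was -3.17 ± 0.73 (adjusted p = 0.0188). Mal-A3 was at 4.71, 8.92, 9.98, 14.2 and 7.72 CPM with CD mothers and at 3.12, 0.699, 1.06, 0.618 and 1.21 with HFD mothers, a log2 fold change of -2.81 ± 0.74 (adjusted p = 0.0366). With HSD mothers neither was called: Mal-A2 at 2.55, 2.29, 2.25 and 15.1 CPM had an adjusted p of 0.0581, and Mal-A3 at 0.661, 0.246, 1.12 and 7.18 CPM had an adjusted p of 0.111. In both genes f44 was well above the other 3 HSD libraries.

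Mal-A5 lies in the middle of the same cluster and did not share the drop. It was at 128, 116, 130, 137 and 138 CPM with CD mothers, 133, 163, 159, 151 and 119 with HFD mothers, and 110, 116, 106 and 104 with HSD mothers. The HFD libraries overlapped with CD (log2 fold change 0.12 ± 0.08, adjusted p = 0.480). The HSD libraries lay just under the lowest CD library, a small difference that was called (log2 fold change -0.29 ± 0.08, adjusted p = 0.0386). Mal-B2 was at 65.0, 80.8, 85.7, 79.1 and 70.0 CPM with CD mothers and within 53.7 to 97.3 CPM in the other libraries, and was called in neither comparison (adjusted p = 0.721 and 0.0775). Mal-B1 was at 7.2, 19.5, 23.2, 15.1 and 8.20 CPM with CD mothers and at 5.36, 3.01, 3.45, 7.81 and 8.08 with HFD mothers. These 2 sets overlapped, and the difference was called (log2 fold change -1.44 ± 0.36, adjusted p = 0.0314). With HSD mothers Mal-B1 was at 12.6, 8.76, 11.6 and 14.6 CPM, inside the CD range.

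**Figure D2:**
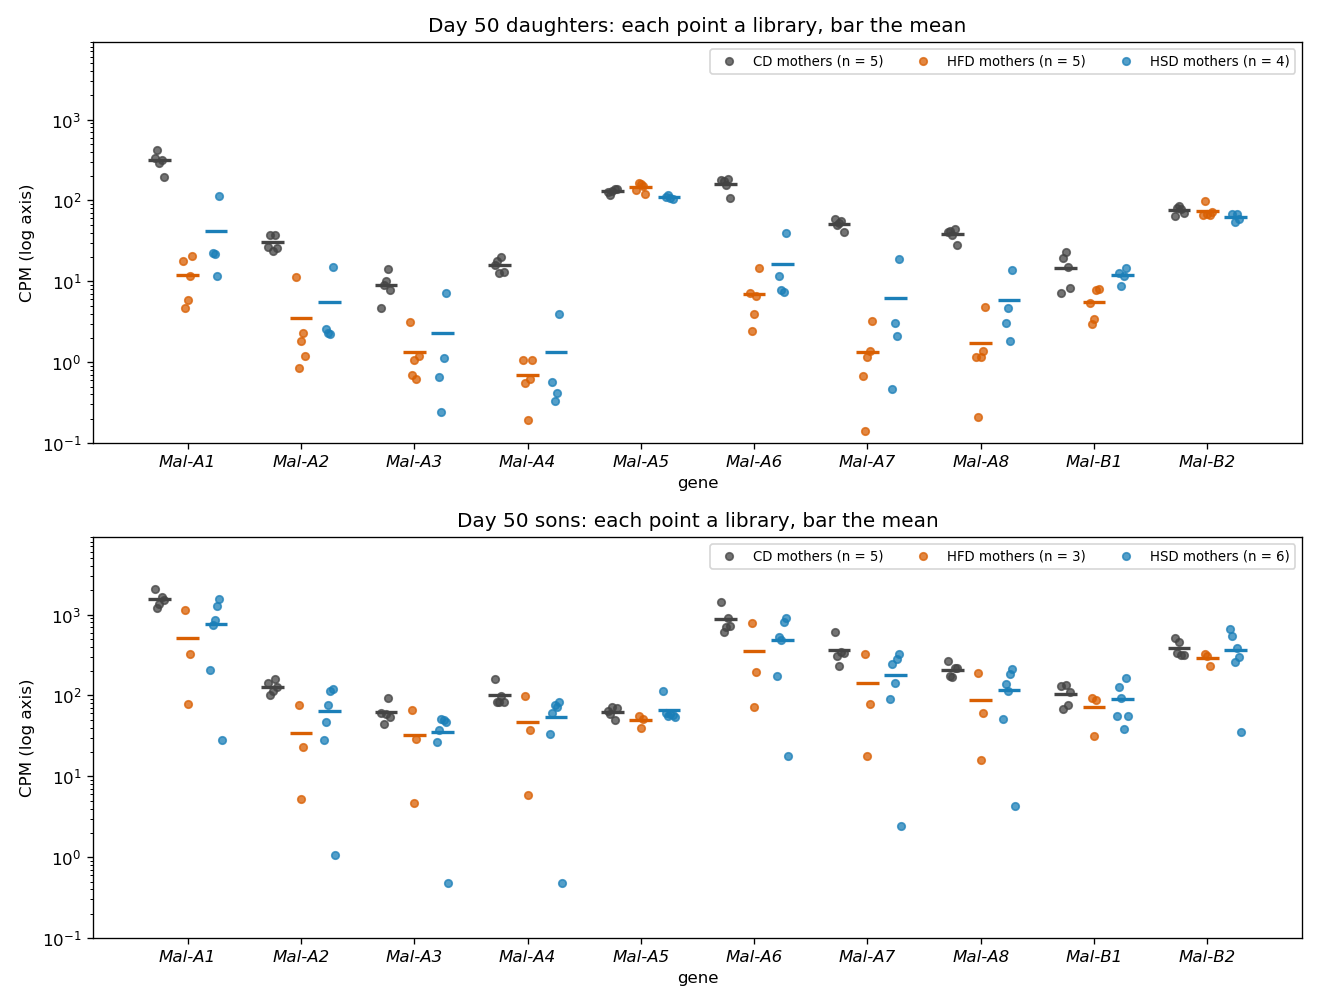
Level of each maltase in every day 50 library of daughters (top) and sons (bottom), in CPM on a log axis, with points for libraries, bars for group means and colours for the mother's diet. In daughters the CD points of Mal-A1, Mal-A2, Mal-A4, Mal-A6, Mal-A7 and Mal-A8 lie above all HFD and HSD points, while Mal-A5 and Mal-B2 lie close together, and in sons the spread within the HFD and HSD groups is wide, as in Mal-A1 with HFD mothers (77.5 to 1131 CPM).

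The count of lower members depended on single libraries in part. Leaving out each library in turn gave 5 to 8 lower members for HFD, with the lower counts without f32 or f38, and 2 to 7 for HSD, with the lower counts without f41 or f43. When all female progeny groups shared 1 fit, the count for HSD was 1. Between HSD and HFD daughters no member was called, nor was any gene (background 0%), although 6 members had an unadjusted p under 0.05 and DESeq2 called 1. Such a p was found for 1566 of all 10132 genes tested, and DESeq2 called 334 genes. The members' smallest p was that of Mal-A5, which was lower with HSD mothers (log2 fold change -0.41 ± 0.08, adjusted p = 0.123).

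Other genes of sugar digestion and of the gut were read in the same day 50 daughters. Of all genes, 5.56% were called lower with HFD mothers and 6.56% with HSD mothers. Of 4 tested genes of sugar digestion, only tobi was called. It encodes another alpha-glucosidase, known in flies as a target of brain insulin. It was at 63.0 ± 10.1 CPM (SD, n = 5) with CD mothers, 6.56 ± 3.30 (n = 5) with HFD mothers (log2 fold change -3.31 ± 0.37, adjusted p = 0.000233) and 7.92 ± 4.42 (n = 4) with HSD mothers (-3.03 ± 0.40, adjusted p = 0.00089). The amylase Amy-p averaged 124, 29.6 and 41.5 CPM in that order and was not called (adjusted p = 0.290 and 0.372). The trehalase Treh averaged 211, 199 and 179 CPM and was not called either. The amylase Amy-d had 365 to 926, 28 to 964 and 19 to 397 counts in that order. Amyrel, also of this list, had only 8 to 15, 0 to 1 and 0 to 3 counts, and no test of it is given here. Of 7 tested sugar transport genes, Tret1-2 and nebu were lower in both comparisons. Of 15 tested genes of sugar sensing, Ilp6 was lower with HFD mothers (adjusted p = 0.0202), a share near that of all genes. With HSD mothers Mondo, babo, Ilp6 and foxo were lower, by -0.15 to -0.68 on the log2 scale.

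Part of the gut markers was lower as well, in comparisons in which 5.56% (HFD) and 6.56% (HSD) of all genes were called lower. Of 8 enterocyte markers, 5 were lower with HFD mothers and 4 with HSD mothers. The sterol transporter Npc1b went from 85.7 ± 28 CPM to 1.64 ± 1.52 and 6.95 ± 10.4, the midgut factor nub from 19.3 to 2.30 and 3.78, mex1 from 21.7 to 2.95 and 5.17, and Myo61F from 188 to 46.7 and 62.2. The summed level of the list was 452 to 710 CPM in the CD libraries, 149 to 295 in the HFD libraries and 163 to 519 in the HSD libraries. None of the 8 markers was at 0 counts in any of these libraries. The other markers of the list did not all go the same way. Myo31DF had 1317 to 1695 counts with CD mothers, 970 to 1764 with HFD mothers and 1213 to 1622 with HSD mothers. PGRP-SC1a had 138 to 461 counts with CD mothers, 14 to 180 with HFD mothers and 43 to 1142 with HSD mothers. LManVI ran from 149 to 413, 1 to 158 and 7 to 615 counts in that order, and PGRP-SC2 from 873 to 2088, 89 to 1614 and 61 to 612. Of 27 gut proteases, 9 were lower with HFD mothers. With HSD mothers 4 were lower and 1, zetaTry, was higher. Their summed level was 4296 to 7836 CPM, 191 to 4524 CPM and 770 to 3925 CPM in the 3 groups. The part of these gut markers in the maltase result was not tested. Of 11 tested ovary markers, none was called with HFD mothers and 1 was lower with HSD mothers. Their sums were 18670 to 41990 CPM with CD mothers, 11550 to 31110 with HFD mothers and 11360 to 21600 with HSD mothers, so that each group overlapped with CD.

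Whether the effect of the mother's diet differed between day 50 and day 10 was tested in daughters with an interaction term, a comparison added after the data were seen. For HFD against CD, 7 members had a more negative effect at day 50, against a background of 5.79%. The differences were -5.55 ± 1.05 for Mal-A1 (adjusted p = 0.00338), -5.41 ± 1.08 for Mal-A6 (0.00514), -4.50 ± 1.34 for Mal-A7 (0.0404) and -4.28 ± 1.19 for Mal-A8 (0.0307). They were -3.42 ± 0.91 for Mal-A2 (0.0250), -3.23 ± 0.92 for Mal-A4 (0.0349) and -0.93 ± 0.24 for Mal-B2 (0.0211). For Mal-B2 the CD mean at day 50 was only 1.03 times the HFD mean. At day 10 Mal-B2 was higher with HFD mothers, though not called (adjusted p = 0.0825). Leaving out single libraries gave 3 to 8 members, with the counts that moved most found without f17, f18, f20, f32, f37, f38 or f39. Without the libraries whose age transcripts were in doubt all 10 were called. The background of 5.79% does not belong to that smaller fit, whose own share is not given here. For HSD against CD no member was called (background 1.17%), the smallest p being that of Mal-A4 (adjusted p = 0.0627). Unadjusted p lay under 0.05 for 4 members and for 2112 of all 10640 genes tested, and DESeq2 called 2 members and 713 genes. In sons no member was called in either interaction (background 0% and 0%), none had an unadjusted p under 0.05, and DESeq2 called none. Among all 12901 genes tested, 3093 (HFD) and 1977 (HSD) had such a p, and DESeq2 called 149 and 9.

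In sons at day 50 the fold changes had the same sign in most members, and none was called. With HFD mothers all 10 log2 fold changes against CD were negative, with a median of -1.07 (all genes 0.004), and with HSD mothers 9 were, with a median of -0.84 (all genes 0.023). Mal-A1 was at 2097, 1220, 1342, 1671 and 1514 CPM with CD mothers and at 1131, 77.5 and 323 CPM with HFD mothers. The 3 HFD sons lay below all CD sons and far apart from each other. No member was called in any of the 3 day 50 comparisons of sons (background 0% in each). No member had an unadjusted p under 0.05. Of all 12659 genes tested, 3627 had such a p with HFD mothers and 2057 with HSD mothers, each against CD. Between HSD and HFD sons 626 genes did. DESeq2 called no member, and 2403, 36 and 15 genes in that order. The members' smallest p was that of Mal-A2 for HFD against CD, of Mal-A1 for HSD against CD and of Mal-A5 for HSD against HFD. Their adjusted p were 0.268, 0.512 and 0.848. The difference between the sexes in the diet effect was tested directly, and at day 50 no member was called for HFD (background 0.202%) or HSD (background 0.109%). For HFD, 5 members had an unadjusted p under 0.05, led by Mal-A6 (adjusted p = 0.122), as did 2232 of all 12872 genes tested. DESeq2 called 4 members and 489 genes. Without m45, the only library of this fit in doubt on age, 5 members were called, all with a less negative effect in sons. Since m45 is an HSD son library, leaving it out changed the shared fit but not the HFD or CD libraries compared. For HSD the smallest p was that of Mal-A4 (adjusted p = 0.332), and DESeq2 called none.

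At the earlier ages the mother's diet left few calls. At day 0 no member was called in daughters (background 0% in all 3 comparisons) or in sons (0% in all 3). Only Mal-A2 in HSD against HFD daughters had an unadjusted p under 0.05 (adjusted p = 0.393). In that comparison 1313 of all 10630 genes tested had such a p, and in the other day 0 comparisons 221 to 1085 genes did. DESeq2 called no member in the 6 day 0 comparisons. At day 10, daughters of HSD mothers were lower than those of HFD mothers in Mal-B1 and Mal-B2, against a background of 34.4% of genes called lower, so that 2 of 10 is below the background share. Mal-B2, in the cluster on 2L, was at 49.4, 48.8, 78.3, 57.6 and 48.2 CPM with HSD mothers and at 55.1, 94.3, 114, 127 and 133 with HFD mothers (log2 fold change -1.06 ± 0.21, adjusted p = 0.00244). Mal-B1 was at 1.91, 1.26, 17.9, 3.42 and 1.88 CPM with HSD mothers and at 51.9, 180, 14, 11.6 and 16.5 with HFD mothers (-3.54 ± 1.19, adjusted p = 0.0183). The high values of Mal-B1 are those of f21 and f22, both in doubt on age, and without the libraries in doubt it was no longer called (-2.53, adjusted p = 0.0744), while Mal-B2 was (-1.35, adjusted p = 0.00743).

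For HFD against CD at day 10, no member was called in daughters (background 0.0483%). Mal-B2 came nearest (log2 fold change 0.90, adjusted p = 0.0825). DESeq2 called 883 genes, Mal-B2 included, and without the libraries in doubt on age 2 members were called higher, Mal-B2 among them. For HSD against CD daughters at day 10 no member was called (background 0%, smallest p 0.120 for Mal-B1, DESeq2 none). In day 10 sons none was called in the 3 comparisons (background 0% in each, DESeq2 none), the smallest p being 0.0791 for Mal-B1. The interaction of sex and diet gave no called member at day 0 (background 0% and 0%) or at day 10 (0.00779% for HFD and 0% for HSD). The smallest p of these 4 was 0.0473 for Mal-B1 with HFD at day 10 (adjusted p = 0.270), and DESeq2 called none. In mothers, which had eaten the diets themselves, no member was called in any of the 3 comparisons (background 0% in each), and DESeq2 called none. In the 3 comparisons 1, 0 and 2 members had an unadjusted p under 0.05, as did 314, 949 and 831 of all 10243 genes tested. The members' smallest p was 0.0351 for Mal-A8 in HFD against CD, 0.0825 for Mal-B2 in HSD against CD and 0.0091 for Mal-B2 in HSD against HFD (adjusted p = 0.999, 0.545 and 0.609). Mal-A1 was at 151, 49.0, 131, 111 and 56.0 CPM in CD mothers, 124, 23.7, 27.3, 59.0 and 27.1 in HFD mothers and 39.7, 86.8, 378, 52.8 and 44.2 in HSD mothers. The single high library, s13, was also the highest HSD mother for the other 9 members.

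The change with age in daughters is given line by line, and the lines were compared only from day 10 to day 50, by the interaction above. In CD daughters from day 0 to day 10, Mal-A3 and Mal-A4 rose, against a background of 36.6%, and Mal-B1 and Mal-B2 fell, against 34.7%, so that 2 of 10 is below the background share in each direction. Mal-A3 went from 6.58, 6.19, 5.72 and 4.30 CPM to 25.6, 25.9, 18, 28 and 16.4, with no overlap (log2 fold change 1.84 ± 0.28, adjusted p = 9.19e-05). Mal-A4 changed by 1.57 ± 0.34 (adjusted p = 0.00107). Mal-B1 went from 128, 158, 106 and 116 CPM to 16.9, 2.49, 2.17, 61.0 and 2.68 (-3.01 ± 0.83, adjusted p = 0.00526). The 61.0 is that of f19, in doubt on age, and without f19 the change was -4.63. Mal-B2 changed little (-0.29 ± 0.12, adjusted p = 0.0416).

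From day 10 to day 50 CD daughters gained Mal-A1 and Mal-A6, against a background of 16.1%, and lost Mal-A3 and Mal-A5, against 30.1%, which is again a smaller share than the background for the loss. Mal-A1 went from 150, 15.3, 14.4, 154 and 13.8 CPM to the day 50 values of 197 to 426 CPM given above (1.90 ± 0.68, adjusted p = 0.0357). At day 10 it fell into 2 high and 3 low libraries, and all 5 day 50 libraries lay above both. Mal-A6 changed by 1.91 ± 0.62 (adjusted p = 0.0227). Mal-A3 fell by 1.58 on the log2 scale (SE 0.25, adjusted p = 0.000185) and Mal-A5 by 0.38 (SE 0.10, adjusted p = 0.00563). When all female progeny groups shared 1 fit, none of the 4 was called. The mean of Mal-A5 in CPM differed less than that, 141 at day 10 and 130 at day 50, since fold changes were scaled within each fit and CPM over the whole table.

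In HFD daughters the drop took in every member. From day 10 to day 50 all 10 members fell, against a background of 38.5%. Mal-A1 went from 62.7, 264, 110, 94.6 and 86.1 CPM to 4.68 to 20.3 CPM, with no overlap (-3.63 ± 0.76, adjusted p = 0.00157). Mal-A3, Mal-A4, Mal-A6, Mal-A7, Mal-A8 and Mal-B1 fell by 3.26 to 3.53 on the log2 scale, Mal-A2 by 2.87, Mal-B2 by 0.85 and Mal-A5 by 0.56 (adjusted p 0.00295 to 0.0437). Without f21 and f22, 8 of 10 were called, all but Mal-A7 and Mal-A8. From day 0 to day 10 no member was called in HFD daughters, nor was any gene (background 0%). 2 members had an unadjusted p under 0.05, led by Mal-B2 (adjusted p = 0.319), and DESeq2 called none. Such a p was found for 1053 of all 10548 genes tested.

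In HSD daughters from day 0 to day 10, Mal-B1 and Mal-B2 fell, a smaller share than the background of 38.7%. Mal-B1 went from 257, 119, 14.2, 199 and 7.09 CPM to 1.26 to 17.9 CPM (-4.69 ± 1.02, adjusted p = 0.00161). The 2 low day 0 values are those of f13 and f15, in doubt on age, and without the libraries in doubt the change was -6.30. Mal-B2 changed by -0.69 ± 0.18 (adjusted p = 0.00424). From day 10 to day 50 no member was called in HSD daughters (background 0.901%). There, 4 members and 1339 of all 10432 genes tested had an unadjusted p under 0.05, and DESeq2 called 2 members and 520 genes. Mal-A4 came nearest, from 7.05, 13.4, 7.15, 29.1 and 8.44 CPM to 0.327 to 4.0 CPM without overlap (-3.45 ± 0.87, adjusted p = 0.0888).

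**Figure D3:**
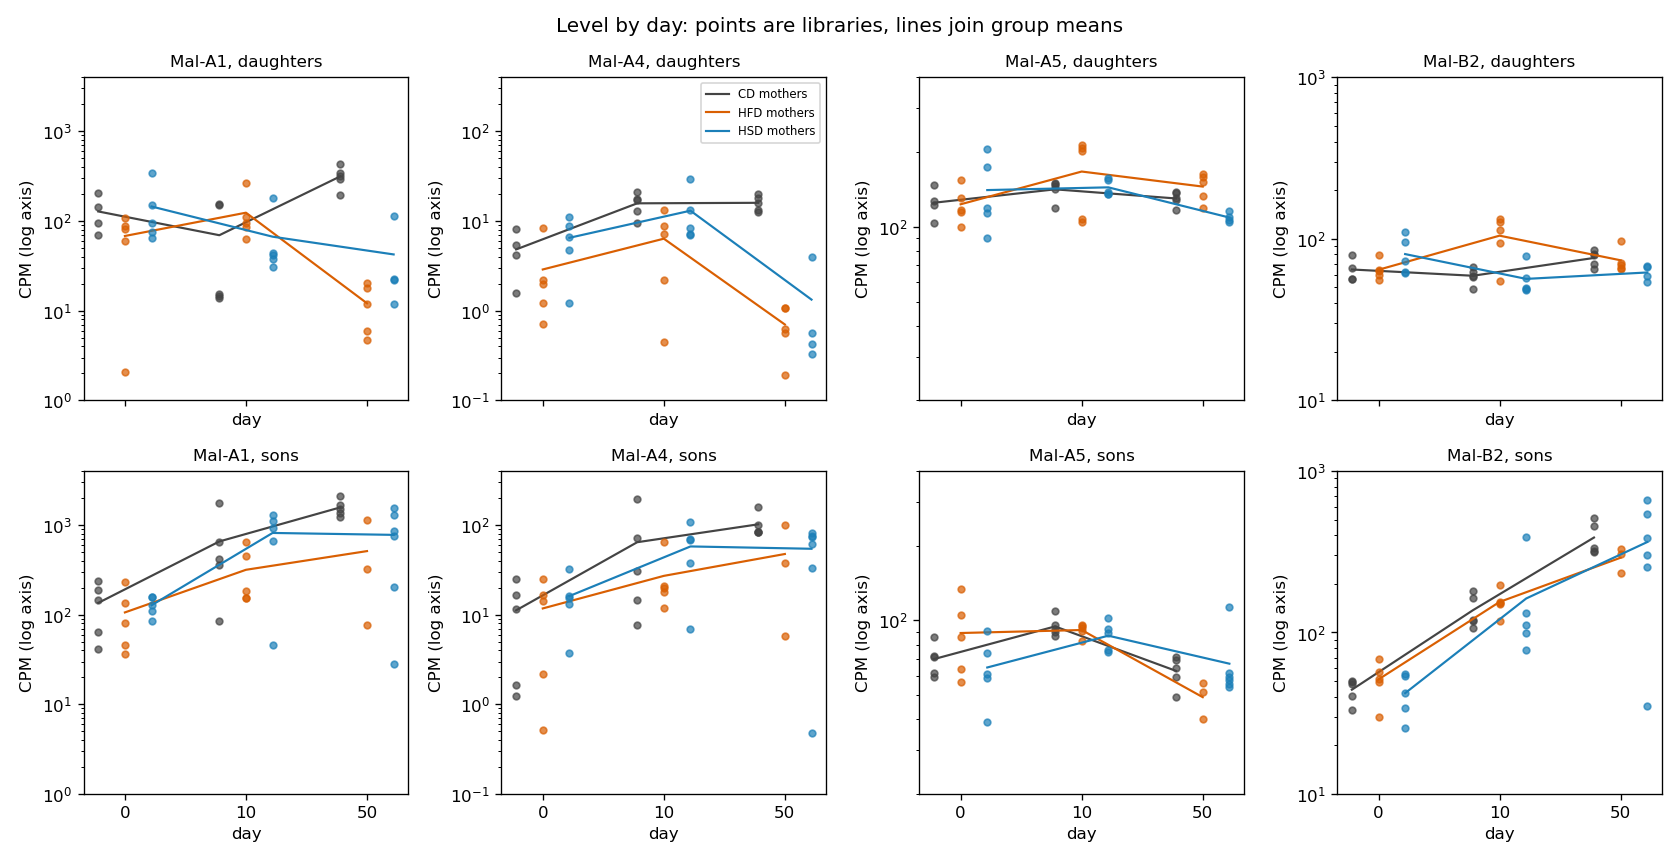
Level of Mal-A1, Mal-A4, Mal-A5 and Mal-B2 at day 0, 10 and 50 in daughters (top) and sons (bottom), in CPM on a log axis, with points for libraries and lines joining the group means of each maternal diet. Mal-A1 of daughters parts at day 50, where the CD mean is 314 CPM, the HFD mean 12.1 and the HSD mean 42.3, and Mal-B2 of sons is higher at each later day in all 3 lines.

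Several maltases rose with age in CD sons. From day 0 to day 10 in CD sons, 6 members rose, against a background of 16%: Mal-A1 (2.27 ± 0.64, adjusted p = 0.0147), Mal-A4 (2.51 ± 0.87, 0.0436), Mal-A5 (0.43 ± 0.12, 0.0120), Mal-A6 (2.60 ± 0.52, 0.00138), Mal-A8 (2.45 ± 0.73, 0.0202) and Mal-B2 (1.63 ± 0.19, 1.22e-05). Of these only Mal-A5 and Mal-B2 were called without m1, m3 and m4, which leaves 2 day 0 libraries. Without m20 alone the count was 3. Mal-B2 was the clearest: 49.5, 40.5, 33, 49.9 and 48.3 CPM at day 0, 117, 164, 180, 107 and 119 at day 10 and 510, 332, 458, 313 and 320 at day 50. No library of an earlier day reached those of the next.

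From day 10 to day 50 in CD sons Mal-B1 (0.67 ± 0.23, adjusted p = 0.0207) and Mal-B2 (1.45 ± 0.19, adjusted p = 1.48e-05) rose, against a background of 34.1%. Mal-A5 fell, against 31.8%, from 86.8, 95.5, 89.8, 109 and 92.1 CPM to 64.2, 59.4, 71.5, 49.1 and 69.0, again without overlap (-0.63 ± 0.12, adjusted p = 0.000291). Without m20, which had the highest day 10 value of Mal-A1 at 1755 CPM, 7 members were called. HFD sons gained Mal-B2 from day 0 to day 10, against a background of 5.49%, by 1.64 ± 0.22 (adjusted p = 0.000977), and no member from day 10 to day 50 (background 1.59%). There Mal-B2 came nearest (adjusted p = 0.0844). For 2 members and 1476 of all 12728 genes tested the unadjusted p was under 0.05, and DESeq2 called 2 members and 642 genes. Without m8 the Mal-B2 change from day 10 to day 50 was called (0.97, adjusted p = 0.00284).

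HSD sons had no called member from day 0 to day 10 (background 0.442%) or from day 10 to day 50 (background 0%). In the earlier step 7 members and 2506 of all 12681 genes tested had an unadjusted p under 0.05. Mal-B2 came nearest (adjusted p = 0.0983), and DESeq2 called 5 members and 963 genes. In the later step 1 member, Mal-B2 (adjusted p = 0.206), and 3063 of all genes had such a p. DESeq2 called no member there and 670 genes. Library m45 lay below the other HSD day 50 sons in 9 members, all but Mal-B1, with Mal-B2 at 35.1 CPM and the others at 256 to 659. Without it 6 members were called in the earlier step, all higher, and Mal-B2 was called in both (1.92, adjusted p = 0.00954, and 1.44, adjusted p = 0.0338).

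Between the sexes, compared in the CD line, the maltases parted with age. At day 0 Mal-A5 and Mal-B2 were lower in males, against a background of 34.4%, by 0.81 (SE 0.12, adjusted p = 1.47e-06) and 0.52 (SE 0.16, adjusted p = 0.00647) on the log2 scale. Without m1, m3 and m4, 2 members were higher and 2 lower. At day 10, 8 members were higher in males (background 45.2%) and Mal-A5 was lower (background 38.1%), with Mal-A3 not called. At day 50, 9 were higher (background 53.6%) and Mal-A5 was lower (background 34.1%). The libraries of the sexes did not overlap in any of the 10. The share of all genes without overlap is not given here, and 87.7% of all genes were called in this comparison. The median of all genes was itself shifted toward males, by 0.169 at day 10 and 0.689 at day 50, and the members' medians were 2.04 and 2.64.

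At day 50 Mal-B2 was the clearest, at 510, 332, 458, 313 and 320 CPM in sons and 65.0 to 85.7 in daughters (2.54 ± 0.16, adjusted p = 3.09e-13). Mal-A7 (3.03 ± 0.95, adjusted p = 0.00465), Mal-B1 (3.02 ± 0.63, 9.49e-05) and Mal-A3 (2.96 ± 0.61, 8.07e-05) had the largest fold changes. Mal-A1 was at 2.51 ± 0.70 (0.00167), Mal-A2 at 2.28 ± 0.56 (0.000537), Mal-A4 at 2.86 ± 0.68 (0.000371), Mal-A6 at 2.65 ± 0.60 (0.00022) and Mal-A8 at 2.63 ± 0.74 (0.00188). Mal-A5 went against all of them: 49.1 to 71.5 CPM in sons and 116 to 138 in daughters (-0.86 ± 0.11, adjusted p = 1.06e-07). At day 10 the called members were higher in males by 1.33 (Mal-B2) to 3.56 (Mal-A6) on the log2 scale, and Mal-A5 was at -0.47 ± 0.11 (adjusted p = 0.000422).

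The change from day 0 to day 10 was larger in CD males than in CD females for Mal-A1 (3.23 ± 0.98, adjusted p = 0.00781), Mal-A6 (3.87 ± 0.85, 0.000597), Mal-A8 (3.09 ± 1.05, 0.0165), Mal-B1 (2.85 ± 0.86, 0.00780) and Mal-B2 (1.85 ± 0.22, 7.64e-07), 5 of 10 against a background of 24.3%. Without m1, m3 and m4 Mal-A1 and Mal-A8 were not called (adjusted p = 0.0866 and 0.130). From day 10 to day 50 it was larger in males for Mal-B2 (1.21 ± 0.21, 5.71e-05, background 29.8%) and smaller for Mal-A5 (-0.39 ± 0.16, 0.0455, background 14.9%). Leaving out single libraries gave 1 to 4 members in this last comparison, with the count moved in 13 of 20 cases (m17, m19, m20, m31, m32, m34, f16, f17, f18, f31, f33, f34 and f35).

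**Figure D4:**
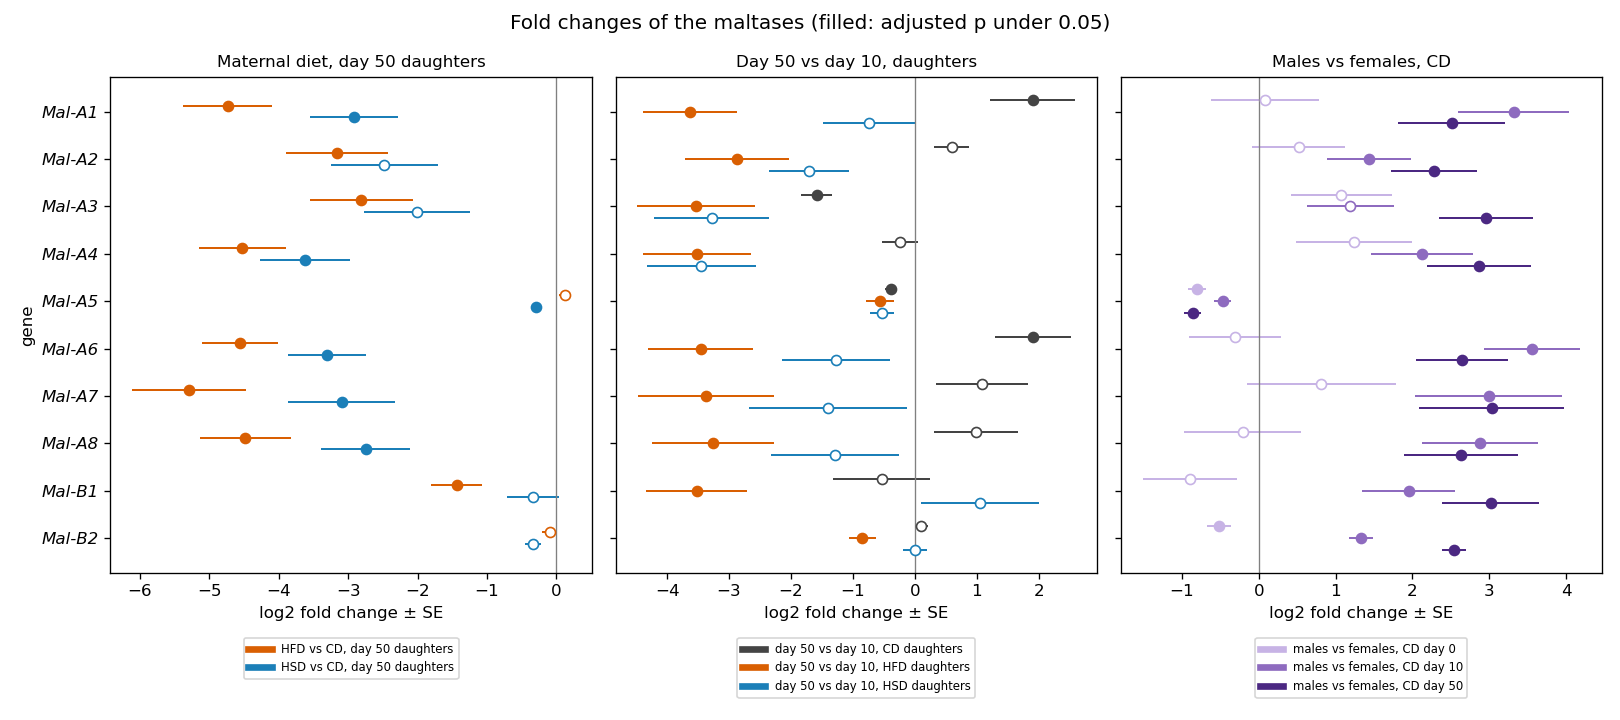
Log2 fold changes of the 10 maltases with their SE, for maternal diet in day 50 daughters (left), day 50 against day 10 in daughters of each line (middle) and males against females in the CD line (right). Filled points are called at an adjusted p under 0.05. Mal-A1 is at -4.74 for HFD at left, 1.90 in CD daughters and -3.63 in HFD daughters in the middle, and 2.51 at day 50 at right.

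The members fell into sets by how their levels went together over the 18 progeny group means, a description over groups that share sequencing and scaling. Mal-A1, Mal-A6, Mal-A7 and Mal-A8 formed the tightest set, with Pearson r of log2 CPM from 0.97 to 0.99 between them. In the deviations of the 87 progeny libraries from their group means, r within this set was 0.85 to 0.96. The libraries in doubt on sex or age are among the 87. Mal-A3 and Mal-A4 were a second pair (0.97 over groups, 0.95 within groups). Mal-A2 had an r of 0.89 and 0.93 with them over groups and of 0.88 to 0.92 with the first set, and within groups 0.89 and 0.90 against 0.65 to 0.75. Along the chromosome Mal-A2, Mal-A3 and Mal-A4 are neighbours, as are Mal-A6, Mal-A7 and Mal-A8, and Mal-A1 lies at the far end from the latter. Mal-A5 was negatively correlated with all others over groups, from -0.43 to -0.67. Mal-B1 and Mal-B2, side by side on 2L, had an r of 0.48 over groups and -0.04 within groups.

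**Figure D5:**
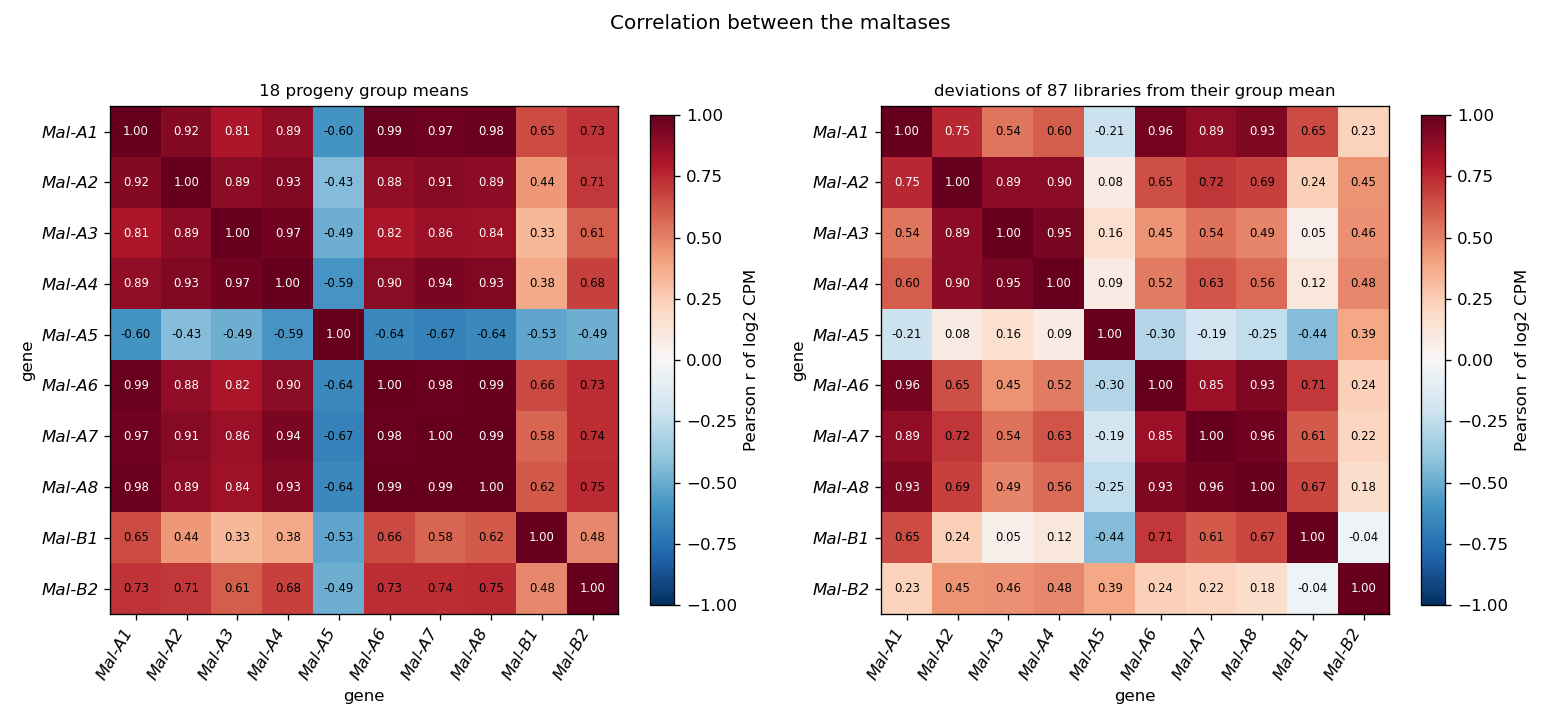
Pearson r of log2 CPM between each pair of maltases over the 18 progeny group means (left) and over the deviations of 87 progeny libraries from their group means (right). Mal-A1, Mal-A6, Mal-A7 and Mal-A8 form a block of 0.97 to 0.99 at left, Mal-A5 is negative against each other gene there, and Mal-B1 and Mal-B2 are at 0.48 at left and -0.04 at right.

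Within groups the sets also differed in which marker lists they went with. Mal-A2, Mal-A3 and Mal-A4 had an r of 0.78, 0.83 and 0.79 with the mean of the enterocyte markers, whereas Mal-A1 had 0.29 and Mal-A6 0.14. With the other genes of sugar digestion the sets did not part: r was 0.68 to 0.76 for the 7 Mal-A genes other than Mal-A5. Mal-A5 had an r of 0.85 with the ovary markers over the group means of both sexes (0.52 within groups). Both values include m8, a day 0 son library with transcripts of the other sex. It had the highest Mal-A5 of the day 0 sons (134 CPM). No r is given without the libraries in doubt. Mal-B2 had one of 0.89 with markers of the adult fat body over group means (0.74 within groups). Among 12399 genes, the 3 nearest to each of Mal-A1, Mal-A6, Mal-A7 and Mal-A8 over the group means were the other 3 of that set. The nearest to Mal-A2 were CG4363 (0.96), CG4377 (0.94) and CG6484 (0.94). Mal-A3 had Mal-A4 (0.97), CG34026 (0.94) and CG14160 (0.94), and Mal-A4 had Mal-A3, CG34026 (0.97) and CG34386 (0.95). The nearest to Mal-A5 were CG17732 (0.91), Cyp18a1 (0.90), a steroid hormone-inactivating enzyme, and tj (0.90), a transcription factor of somatic gonad cells. Mal-B1 had Eip93F (0.96), an ecdysone-induced transcription factor, CG5783 (0.95) and CG14984 (0.94). Mal-B2 had Xbp1 (0.97), a factor of the unfolded protein response, Paics (0.97), an enzyme of purine synthesis, and Tep4 (0.97), a thioester protein of the immune response.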

How the data were processed

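Whole-fly RNA was sequenced. Per the submitters' processing notes, reads were assigned with kallisto on BDGP6 and handled in R 4.2.0 with DESeq2 1.36.0. The authors deposited whole-number read counts for each gene, with mothers and progeny in separate files, and every library column was used. Gene symbols came from a name table; 10 of 14312 identifiers had none. Groups follow the labels. The 10 members, the gene lists and the tests were chosen with earlier results of these data known. All 10 are named; statistics are given for members called and, where none was, for the member with the smallest p. Counts were tested with edgeR 4.0.16 in R 4.3.3 (glmQLFit, glmQLFTest, TMM scaling, filterByExpr with a minimum count of 10 and total of 15), with Benjamini-Hochberg adjustment over all genes tested. CPM printed are scaled by TMM within each table, so mothers and progeny were not tested against each other; fold changes are scaled within each fit. Correlations used log2(CPM + 1). Alternatives were DESeq2 1.42.0, other scalings and filters, broader fits and left-out libraries. The procedure was tested on simulated data. A total count of 6332907 to 19469296 per library sets the counting error. No 2 libraries of a group agreed within sampling noise: over 200 pairs the smallest chi-square per degree of freedom was 5.92.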

Additional observations from a re-analysis of the deposited data

Results flagged for a closer look

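In 43 of 200 tests of a maltase in a group of 4 to 10 libraries (21.5%), 1 library lay far from the others by Dixon's criterion, where chance gives about 1 in 20. The library was on the high side in 42, and 20 libraries were involved; on the log2 scale the number was 22. All values in this paragraph are CPM. Among mothers, s13 (HSD) was high in Mal-A1 (378.2), Mal-A2 (24.43), Mal-A4 (25.21), Mal-A6 (191.3), Mal-A7 (54.25) and Mal-A8 (36.34), s6 (HFD) in Mal-A7 (10.25) and Mal-A8 (12.58), and s1 (CD) in Mal-B2 (168). Among day 0 daughters, f9 (HFD) was high in Mal-A2 (19.42), Mal-A4 (8.271) and Mal-A7 (52.57), and f14 (HSD) in Mal-A7 (83.13) and Mal-A8 (63.32). Among day 10 daughters, f22 (HFD) was high in Mal-A1 (264.2), Mal-A6 (180.7), Mal-A7 (30.27), Mal-A8 (36.81) and Mal-B1 (179.6). The HSD library f28 was high in Mal-A1 (181), Mal-A6 (120.1), Mal-A7 (53.36), Mal-A8 (48.87) and Mal-B1 (17.94), f29 (HSD) in Mal-A4 (29.07) and f19 (CD) in Mal-B1 (61.05), while f16 (CD) was low in Mal-A5 (119.1). Of these, f19, f22 and f28 are in doubt on age. Among day 50 daughters, f44 (HSD) was high in Mal-A1 (113.3), Mal-A2 (15.08), Mal-A3 (7.178), Mal-A4 (3.998), Mal-A6 (39.34) and Mal-A7 (19.08). In the HFD group f36 was high in Mal-A2 (11.21) and Mal-A3 (3.12), f37 in Mal-B2 (97.3) and f40 in Mal-A8 (4.822). Among sons, m15 (HSD, day 0) was high in Mal-A2 (22.34), m20 (CD, day 10) in Mal-A7 (524.3), m23 (HFD, day 10) in Mal-A4 (64.61), m27 (HSD, day 10) in Mal-B2 (390.7), m31 (CD, day 50) in Mal-A4 (159.4) and m44 (HSD, day 50) in Mal-A5 (113.7).

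Some effects differed between groups by an interaction term (log2 scale). The change from day 0 to day 10 in the CD line was larger in males for Mal-A1 (3.23), Mal-A6 (3.87), Mal-A8 (3.09), Mal-B1 (2.85) and Mal-B2 (1.85). From day 10 to day 50 it was larger in males for Mal-B2 (1.21) and smaller for Mal-A5 (-0.39). The HFD effect in daughters was more negative at day 50 than at day 10 for Mal-A1 (-5.55), Mal-A2 (-3.42), Mal-A4 (-3.23), Mal-A6 (-5.41), Mal-A7 (-4.50), Mal-A8 (-4.28) and Mal-B2 (-0.93). Mal-B2 was not lower with HFD mothers at day 50 to the same degree: its CD mean was 1.03 times its HFD mean. At day 10 it was higher with HFD mothers, though not called (adjusted p = 0.0825).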

How the results depend on the processing

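Counts of called maltases that moved by more than 1.5 times are given as the reported count followed by the alternative. With DESeq2 they were, for HFD against CD daughters at day 10, 0 and 1; HSD against HFD daughters at day 50, 0 and 1; HSD daughters from day 10 to day 50, 0 and 2. CD sons from day 10 to day 50 had 3 and 5, HFD sons 1 and 2 from day 0 to day 10 and 0 and 2 after it, and HSD sons 0 and 5 from day 0 to day 10. The sex contrast at day 0 had 2 and 1, sex by HFD at day 50 had 0 and 4, and diet by age for HSD daughters had 0 and 2. Median-of-ratios scaling gave 1 for the sex contrast at day 0, and so did leaving out the filter, which also gave 1 in place of 2 for sex by age from day 10 to day 50. With all groups of a sex, or all progeny, in 1 fit, HSD against CD daughters at day 50 went from 6 to 1, CD daughters from 4 to 2 (day 0 to 10) and from 4 to 0 (day 10 to 50), and diet by age for HFD daughters from 7 to 4. The same fit gave 1 for HFD against CD daughters at day 10, 2 for HSD daughters from day 10 to day 50, 2 and 1 for HFD sons, 3 and 1 for HSD sons, 1 for the sex contrast at day 0 and 0 for sex by age from day 10 to day 50. Without the libraries in doubt on age, HFD against CD daughters at day 10 had 2, HFD daughters from day 0 to day 10 had 2, HSD daughters from day 10 to day 50 had 1, HSD sons had 6 and 1, sex by HFD had 1 at day 10 and 5 at day 50, and diet by age for HSD daughters had 1. Without those in doubt on sex, CD sons from day 0 to day 10 had 2, HFD sons 2 and 2, and the sex contrast at day 0 had 4.

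Leaving out each library in turn gave 0 to 1 for HFD against CD daughters at day 10 (f19, f21), 5 to 8 at day 50 (f32, f38), 2 to 7 for HSD against CD at day 50 (f41, f43) and 0 to 2 for HSD against HFD (f40). It gave 0 to 1 for HFD daughters from day 0 to day 10 (f21), 2 to 5 for HSD daughters (f28) and 0 to 3 after it (f44). CD sons had 3 to 7 and 2 to 7 (m20 in both), HFD sons 1 to 2 (m8) and HSD sons 0 to 1 from day 10 to day 50 (m27, m45). Sex by age from day 10 to day 50 had 1 to 4, and diet by age 3 to 8 for HFD daughters and 0 to 2 for HSD daughters (f29, f44). 2 fold changes that were not called reversed: Mal-B2 for HSD against CD at day 0 in daughters was -0.059 without the libraries in doubt on age, and Mal-A5 for diet by age with HSD in sons ran from -0.012 (without m44) to 0.367 when single libraries were left out. Why these values moved was not tested. Sons and daughters of 1 line and day share running numbers, in 41 pairs. The deviations of same-numbered libraries from their group means had an r over 0.1 in 11 pairs (median -0.025, highest 0.404). Of the daughters, 8 correlated best with the son of their own number. These values cannot tell whether same-numbered libraries share an origin, which the labels do not give. With the number as a replicate block, an alternative added after the data were seen, the counts between the sexes in the CD line were 2, 6 and 10 at day 0, 10 and 50, those of sex by age were 5 and 3, and those of sex by diet were 0 in all 6. The other groups compared share no number. Members under 5 CPM rest on few counts, which limits the precision of their fold changes.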
